A study of Rattus norvegicus with 33 samples.

Results

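The brain of adult rats that had been given an inflamed hindpaw on postnatal day 3 was examined on 6 dual-colour arrays, out of 33 arrays in the whole series. Each array compared brain RNA from carrageenan-treated rats with brain RNA from control rats, and the arrays were chosen by their titles alone. Carrageenan is a seaweed polysaccharide that causes a local, passing inflammation. Pups received 1 µl per g body weight of a 0.25% solution in saline under the sole of the left hindpaw on day 3 (P3), and the animals were male rats studied at P60. Litters were divided into a P3 group, a P12 group and controls, and the labels name no strain, no brain region and no treatment of the controls. The carrageenan sample carried Alexa 647 and the control sample Alexa 546, and no array with exchanged dyes is named, so a dye effect at a probe and an effect of carrageenan cannot be told apart.

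The other arrays used here were 6 of the left and 6 of the right lumbar dorsal horn (LDH, the spinal region that receives input from the hindpaw) of P3 rats, and 5 of the brain of rats injected at P12. The study asked which genes stay changed in adults after an early painful insult, inside (P3) or outside (P12) a sensitive period. Its design text speaks of the dorsal horn, both without later inflammation and during inflammation of the same paw by complete Freund's adjuvant. The labels do not say whether any brain array came from a rat inflamed again as an adult. Nothing in the labels says that arrays came from separate animals, so the p-values measure only the spread between these arrays, which may be technical.

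The P3 table held a log ratio for 222 probes, of which 196 carried a gene symbol and 26 did not. They stood for 158 symbols, and 23 symbols had several probes. Neither the labels nor the tables state the base of the logarithm or the direction of the ratio. Here the values are read as log2, with signs kept as deposited; if the ratio is carrageenan over control, a negative value means less transcript in the treated rats. Intensities were not used here, so no level can be given for any gene, only a difference. None of the markers listed for neurons, astrocytes, microglia, oligodendrocytes or blood vessels had a probe, so the tissue label could not be checked. In whole tissue, fewer cells of a type and less RNA per cell cannot be told apart.

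The array was built around the signals of pain pathways. Glutamate is the main excitatory transmitter of the brain and acts on ion channels (AMPA, kainate and NMDA receptors) and on slower, G protein-coupled metabotropic receptors, while GABA is the main inhibitory transmitter. Opioid peptides dampen pain signals, substance P and calcitonin gene-related peptide (CGRP) are released by pain fibres, and neurotrophins such as BDNF keep neurons alive and adjust synapses. Histamine and the interleukins carry messages between immune cells and also act on neurons and glia.

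Array 1 stood apart from the other P3 brain arrays. The SD over its 222 log ratios was 1.17, against 0.388 to 0.648 in arrays 2 to 6. In it 55 probes (24.8%) exceeded 1 in size, against 8 to 20 probes in the other arrays, and it held the value of largest size at 90 probes. An exact 0 stood at 10 of its probes, at 1 probe of array 4 and at none on the others. Across probes, which are not independent replicates, the correlation of array 1 with each other array lay between -0.08 and 0.10, and that among arrays 2 to 6 between 0.14 and 0.39. Without the 2 probes called below, the median correlation over all 15 pairs of arrays dropped from 0.16 to 0.07. Means of at least 0.15 in size that moved by over 1.5 times without array 1 are therefore given both ways. Which probe is the highest or lowest of a family refers to the means over all 6 arrays.

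**Figure D1:**
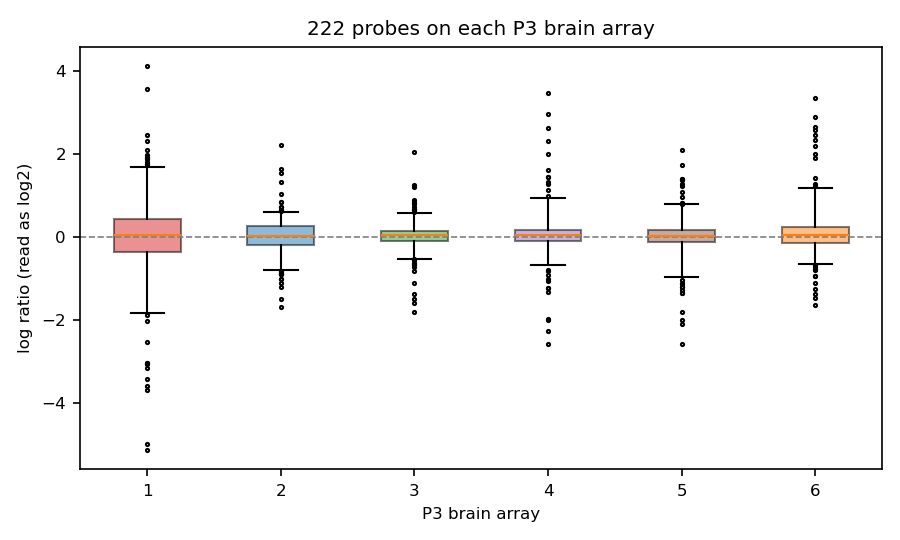
Deposited log ratios of all 222 probes on each of the 6 P3 brain arrays (boxes, quartiles with the median; whiskers, from 5% to 95% of the probes; points, probes beyond). Array 1 had the widest spread, with an SD of 1.17 against 0.388 to 0.648 in the others, and values from -5.14 to 4.12.

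Probes of 2 receptors, 1 probe for each, had log ratios that were clearly negative on every array, and nothing else passed the test. They were the probe for Grm5, the metabotropic glutamate receptor mGluR5, and 1 of the 2 probes for Hrh4, the histamine H4 receptor. These were 2 of 222 probes (0.901%) with an adjusted p under 0.05 in limma's test of the mean against 0, Benjamini-Hochberg adjusted over all probes. Both were also the 2 called when array 1 was left out. Neither passed when the arrays were scaled to one spread (adjusted p = 0.0609 for Grm5 and 0.101 for Hrh4, limma) or in 1 fit with the cord arrays (0.0634 and 0.0794). At an unadjusted p under 0.05 there were 23 probes (10.4%), 10 with a positive and 13 with a negative mean, where chance alone gives 11.1.

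Grm5 encodes a receptor that sits mostly on the receiving side of excitatory synapses and releases calcium inside the neuron. Its probe read -3.04, -1.69, -1.59, -2.58, -1.998 and -1.39 on arrays 1 to 6. All 6 values lay below -1.3, and array 1 was the lowest. The mean was -2.05 ± 0.64 (SD, n = 6), with a 95% interval from -2.61 to -1.49 and an adjusted p of 0.00804 (limma). Read as log2, the control channel was 4.14 times the carrageenan channel if the ratio is carrageenan over control. Without array 1 the mean was -1.85 and the adjusted p 0.0132 (limma). Leaving out array 5 ended the call, with a mean of -2.06 and an adjusted p of 0.0506, and the call held without each of the others.

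Hrh4 encodes the histamine receptor best known from white blood cells. Probe 93 read -1.47, -1.22, -1.12, -2.005, -2.11 and -1.48. Its 6 values lay within 1 log2 unit of each other, and array 1 was in their middle. The mean was -1.57 ± 0.41 (SD, n = 6), with a 95% interval from -1.94 to -1.20 and an adjusted p of 0.00653 (limma). A second Hrh4 probe, number 94, is listed for the same sequence entry and gave another result. It read 1.22, 0.26, -0.27, 0.83, -0.04 and 1.17, with a mean of 0.53 ± 0.63 and an adjusted p of 0.434. The groups of values of the 2 probes did not overlap, and their average over the 6 arrays was -0.52 (adjusted p = 0.299, limma on symbols). The call for Hrh4 is therefore a call for 1 probe. The sequences of the probes themselves were not used here.

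After these 2 the probes formed a continuous run of smaller values. The next named probes by p were Il1b, a somatostatin receptor probe listed only as SSTR, Mchr1, Grik3 and Bdnf, each with an adjusted p of 0.326 (limma). Il1b, the inflammatory cytokine interleukin-1 beta, was negative on all arrays, from -0.62 to -0.17 with a mean of -0.33 ± 0.18. The SSTR probe was positive on all 6 arrays, from 0.12 to 0.31 with a mean of 0.24 ± 0.08. Mchr1, the receptor for the feeding peptide melanin-concentrating hormone, read 0.14 to 0.92 with a mean of 0.47 ± 0.33. The probe for Bdnf, the neurotrophin named above, read -1.88, -0.80, -0.53, -0.19, -1.28 and -0.26. Its mean was -0.82 ± 0.65, and -0.61 without array 1. The SD was thus close to the mean, and no array was positive.

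**Figure D2:**
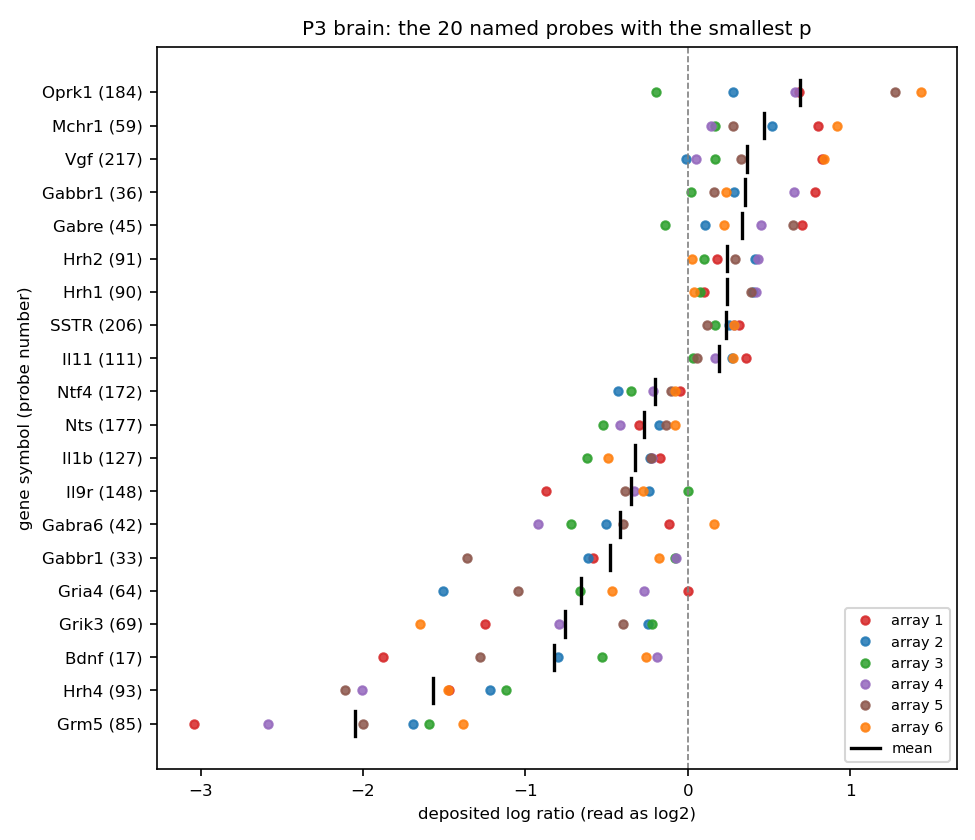
Log ratios on the 6 P3 brain arrays for the 20 named probes with the smallest p, with the mean of each. The points of Grm5 and of Hrh4 probe 93 lie below -1 on all 6 arrays, while those of the other 18 reach closer to 0.

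The same sign on all 6 arrays was found at 22 probes (9.91%), 12 positive and 10 negative, and 20 of these had a gene symbol. At 20 of the 22 the mean of the P3 dorsal horn, over both sides, had the same sign as the brain mean. The share over all probes was not counted, and cord means near 0 were included. The 2 sides could also differ, as for Hrh1, at 0.25 in left and -0.08 in right cord. Among the 12 positive probes were the histamine H1 and H2 receptors, through which histamine excites neurons. Hrh1 was at 0.24 ± 0.18 in brain and Hrh2 at 0.24 ± 0.17. Among the negative ones was Ntf4 at -0.20 ± 0.16, the neurotrophin that shares its receptor with BDNF. An exact sign-flip test over 6 arrays cannot give a p below 0.03125, so single probes cannot pass a correction over 222 in that way.

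The size of change that the arrays could resolve differed from probe to probe. The median 95% interval reached 0.36 to each side of the mean. It lay wholly between -0.5 and 0.5 at 105 of 222 probes, and wholly between -1 and 1 at 175. Over all probes 130 means were positive, 91 negative and 1 exactly 0, with a median of 0.044. Centring each array on its median gave 119 positive and 103 negative. A mean of over 0.5 in size was found at 24 probes and one of over 1 at 3, the third being an unnamed probe (number 167) at 1.17 ± 1.06 with an adjusted p of 0.351.

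Glutamate genes had the largest difference of the table but no common direction. Of 22 probes for ion channel subunits 13 were positive and 9 negative, with a median of 0.06, and none passed the test. The lowest was Grik3, a kainate receptor subunit, whose probe 69 read -1.25, -0.25, -0.22, -0.79, -0.40 and -1.65 (mean -0.76 ± 0.59). The values were negative on every array but uneven in size, with arrays 1 and 6 the lowest, and the other Grik3 probe, number 67, had a mean of 0.23 ± 0.69, or -0.04 without array 1. Gria4, an AMPA receptor subunit, had a mean of -0.66 ± 0.55 (adjusted p = 0.347, limma) with array 1 at exactly 0. The highest was Grin1 probe 77, for the obligatory NMDA receptor subunit, at 0.47 ± 1.61 (0.88 without array 1), and the 3 other Grin1 probes lay between -0.03 and -0.01. Probe 77 read 3.36 on array 6, and its mean without array 6 was -0.11. Of 8 metabotropic receptor probes 2 were positive and 6 negative, with a median of -0.06, and Grm5 was the only one called. Grm8, a presynaptic autoreceptor, was at -0.41 ± 0.63 and at -0.17 without array 1. The highest, Grm3, was at 0.18 ± 0.83, with 1.81 on array 1, and at -0.15 without that array. The 2 glutamate transporter probes read 0.25 ± 0.26 for Slc1a1 and -0.14 ± 0.11 for Slc1a6.

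GABA genes gave no called probe. Of 14 probes for GABA-A subunits, which form the chloride channel, 6 were positive and 8 negative, with a median of -0.03. Without array 1 that median was 0.14 and 8 probes were positive. Gabra6, a subunit known mainly from cerebellar granule cells, read -0.92 to 0.16 with a mean of -0.42 ± 0.39 (adjusted p = 0.390, limma). Gabrr1 had the lowest mean, -0.60 ± 2.18, through a single value of -4.99 on array 1, and stood at 0.28 without it. Gabrg1 had the highest at 0.57 ± 1.03. The metabotropic GABA-B receptor was covered by 8 probes of Gabbr1, with means from -0.48 ± 0.49 (probe 33) to 0.35 ± 0.30 (probe 36). Both of these extremes had the same sign on all 6 arrays. Of 4 probes for GABA synthesis and uptake 3 were positive and 1 negative. They included the synthesizing enzymes Gad1 at 0.07 ± 0.14 and Gad2 at -0.30 ± 0.64 (-0.46 without array 1), and the transporter Slc6a11 at 0.47 ± 1.03, which was 0.07 without array 1.

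Amine receptors other than Hrh4, and adenosine receptors, gave no called probe either. Of 16 serotonin probes 12 were positive and 4 negative, with a median of 0.08 and extremes at Htr3b (-0.63 ± 1.33) and Htr2b (0.59 ± 1.58). Both extremes had an SD larger than their mean, and without array 1, which read -3.17 and -1.23 there, they stood at -0.12 and 0.95. Htr2b read 3.48 on array 4 and at most 0.87 on the other arrays. Of 10 adrenergic probes 7 were positive, 2 negative and 1 exactly 0, with a median of 0.06. The highest was Adra1b at 0.35 ± 0.54. The 5 histamine probes had 3 positive and 2 negative means, and a median of 0.24. All 5 adenosine receptor probes were positive, with a median of 0.29, from Adora2b (0.07 ± 0.22) to Adora1 (0.38 ± 0.75). Without array 1 their median was 0.12 and 3 of the 5 were positive. The median over all 222 probes was 0.06 without that array.

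Of 10 probes for opioid peptides and receptors 8 were positive and 2 negative, with a median of 0.10, and none was called. Oprk1, the receptor for dynorphin, was the highest and read 0.68, 0.28, -0.20, 0.66, 1.27 and 1.43. Its mean was 0.69 ± 0.61, with 5 of 6 arrays positive and an adjusted p of 0.351 (limma). Oprm1, the receptor through which morphine acts, was the lowest at -0.55 ± 1.23. Array 1 alone read -3.04 there, and the mean of the others was -0.05. Penk, the enkephalin precursor, had 3 probes at 0.17 ± 0.53, 0.62 ± 1.73 and 0.13 ± 0.16. Without array 1 the first was at 0.05. The middle one of these read 4.12 on array 1 and had a mean of -0.08 without it. Without array 1, the opioid median was 0.03 and 6 of the 10 probes were positive.

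Other neuropeptides also gave no called probe. Of 12 tachykinin and CGRP probes 7 were positive and 5 negative, with a median of 0.05. Tac1, the precursor of substance P, had 4 probes, of which number 215 was at 0.75 ± 0.87 and the other 3 between -0.12 and 0.16, or between -0.15 and 0.39 without array 1. Calca, the CGRP gene, was at 0.04 ± 0.06, the smallest SD of the table. Of 5 neuropeptide Y probes 2 were positive and 3 negative. They ranged from the receptor Npy1r (-0.35 ± 0.61) to the receptor Npy2r (0.89 ± 1.17), whose arrays ran from 0.00 to 2.97. Of 9 somatostatin probes 6 were positive and 3 negative, with a median of 0.13. Of 13 probes for neurotensin, vasoactive intestinal peptide, cholecystokinin and Mchr1, 8 were positive and 5 negative. Ntsr2, a neurotensin receptor, was the lowest at -0.72 ± 0.86. The neurotensin gene Nts had 4 probes, from -0.27 ± 0.17 to 0.32 ± 0.49.

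Growth factors and cytokines ended the survey. Of 6 neurotrophin probes 3 were positive and 3 negative, with Bdnf the lowest and its receptor Ntrk2 the highest at 0.50 ± 0.73. Ntrk2 read 1.91 on array 1 and had a mean of 0.22 without it. Of 22 interleukin probes 15 were positive and 7 negative, with a median of 0.04, or 0.15 without array 1. The lowest was Il18, a cytokine that drives interferon gamma production, at -0.48 ± 0.54, and the highest was Il4 probe 137 at 0.62 ± 0.85. Il2, the T cell growth factor, was positive on all arrays, but 1 value of 2.21 on array 2 made most of its mean of 0.59 ± 0.81. Il6 was at 0.09 ± 0.32. Of 15 interleukin receptor probes 7 were positive and 8 negative, with Il12rb2 the lowest at -0.60 ± 1.40 and at -0.03 without array 1. The 4 probes for the chemokine receptors Cxcr1 and Cxcr2 had means from 0.04 to 0.17.

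**Figure D3:**
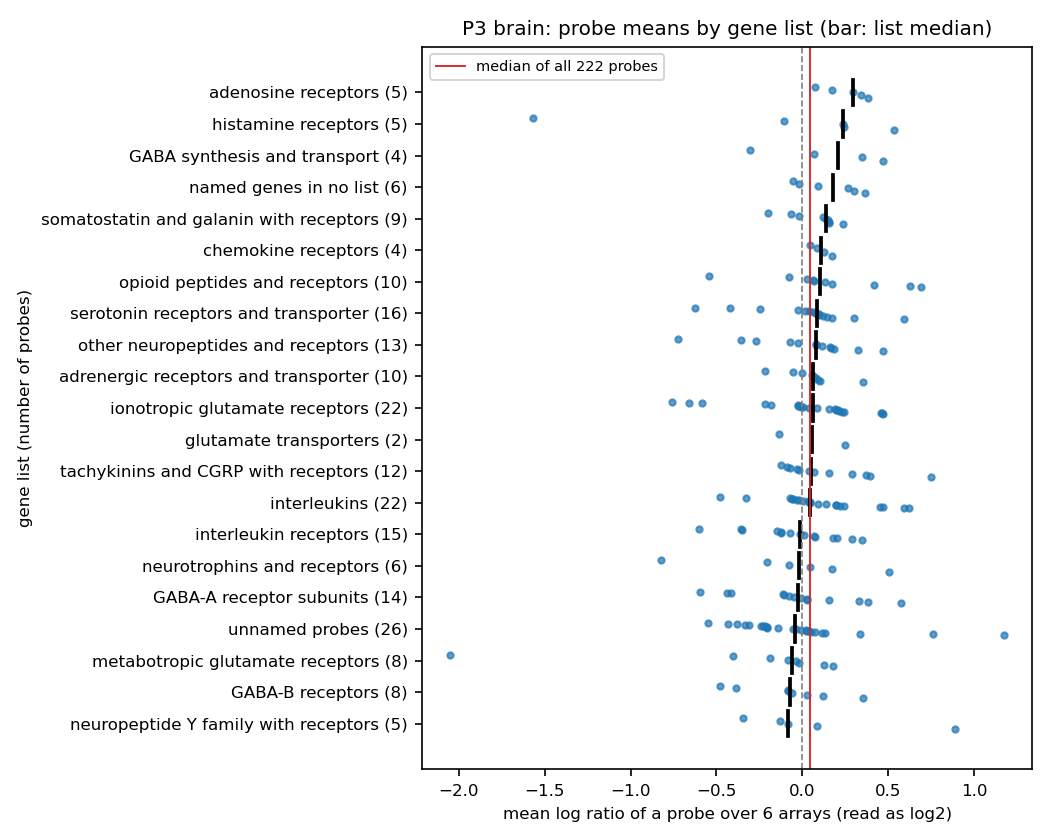
Mean log ratio of every probe over the 6 P3 brain arrays, by gene family, with the median of each family. Apart from Grm5 and Hrh4 probe 93, both under -1.5, the named probes lie between -1 and 1, and the family medians between -0.08 and 0.29.

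Of a panel of 22 genes often studied in pain, 18 had a probe. They were covered by 33 probes, 8 of them for Gabbr1. Of the 33 probes 18 had a positive and 15 a negative mean, with a median of 0.04. None was called, and 5 of 33 had an unadjusted p under 0.05, beside 23 of 222 (10.4%) over all probes. Those 5 were Il1b, Bdnf, Oprk1 and the extreme pair of Gabbr1 probes. Calca and Gad1 had 95% intervals from -0.11 to 0.18 and from -0.11 to 0.24, while that of Oprm1 ran from -1.60 to 0.51 and so says little.

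Probes for the same gene often disagreed. Among 23 symbols with several probes 16 had means of both signs, and the median distance between a gene's highest and lowest probe mean was 0.35. For 8 symbols several probes were listed under one sequence entry, and 6 of these 8 had means of both signs. Hrh4 had the largest distance at 2.10, followed by Grik3 at 0.99 and Tac1 at 0.87. Without array 1 these distances were 1.98, 0.62 and 0.83, both Grik3 means were negative, and Grin1 stood at 0.97. The count of symbols with means of both signs was again 16 without array 1. Grm5 had a single probe, so no such check was possible for it.

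**Figure D4:**
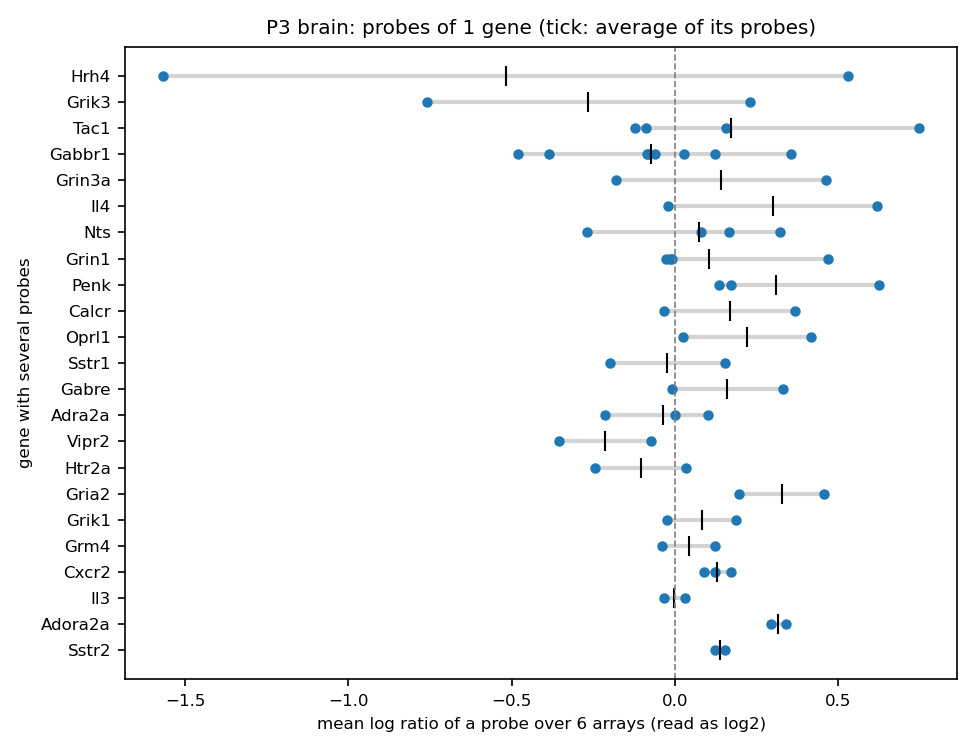
Mean log ratio over the 6 P3 brain arrays of each probe, for the genes with several probes. The 2 Hrh4 probes lie 2.10 apart, while the probes of Sstr2 lie 0.03 apart.

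In the dorsal horn of P3 rats the log ratios of the same 2 probes were negative too. A pair of arrays on each side that correlated above 0.8 was averaged and counted once, which left 5 samples a side. Grm5 averaged -2.07 ± 2.21 (SD, n = 5) in the left dorsal horn, where the arrays ran from -5.71 to -0.19. On the right it averaged -1.68 ± 0.83 (SD, n = 5), and the probe was negative in 5 of 5 samples on each side. Its brain value differed from the spinal one by -0.17 ± 0.66 (SE; adjusted p = 0.920, limma), with a 95% interval from -1.59 to 1.24. Hrh4 probe 93 averaged -0.80 ± 1.74 in left and -1.35 ± 0.83 in right cord. It was negative in 4 of 5 left and 5 of 5 right samples, the exception being left array 4. The difference for brain was -0.49 ± 0.54 (SE; adjusted p = 0.846, limma), with a 95% interval from -1.63 to 0.65. Bdnf was negative in 5 of 5 left and 4 of 5 right samples, at -0.77 on the left and -0.47 on the right. The share of all probes with such counts in the cord was not worked out.

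No probe differed between brain and dorsal horn after adjustment. The count was 0 of 222 (0%) with limma, and 10 probes (4.5%) had an unadjusted p under 0.05. The lowest adjusted p was 0.359, for Grik3 probe 69 and for the unnamed probe 209. Grik3 probe 69 averaged -0.76 in brain, 0.15 in left and 0.02 in right cord, a difference of -0.85 ± 0.23 (SE) with a 95% interval from -1.35 to -0.35. That interval takes no account of the choice of this probe by its small p among 222. For the other Grik3 probe, number 67, the difference was 0.24 ± 0.22 (SE), with a 95% interval from -0.23 to 0.72. The brain mean of probe 67 was 0.23, or -0.04 without array 1. Grm8 was at -0.41 in brain, 0.75 in left and 0.40 in right cord, which left -0.98 ± 0.33 between them (adjusted p = 0.494, limma). Without array 1 its brain mean was -0.17. Calcr probe 21, for the calcitonin receptor, was at 0.37 in brain, -0.27 in left and -0.40 in right cord, a difference of 0.71 ± 0.24 (adjusted p = 0.494, limma). The other Calcr probe, number 22, had a difference of the opposite sign, -0.30 ± 0.33 (adjusted p = 0.846, limma). It was at -0.03 in brain, 0.31 in left and 0.23 in right cord. Il1b was at -0.33 in brain, 0.02 in left and -0.12 in right cord, a difference of -0.28 ± 0.10 (adjusted p = 0.590, limma).

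**Figure D5:**
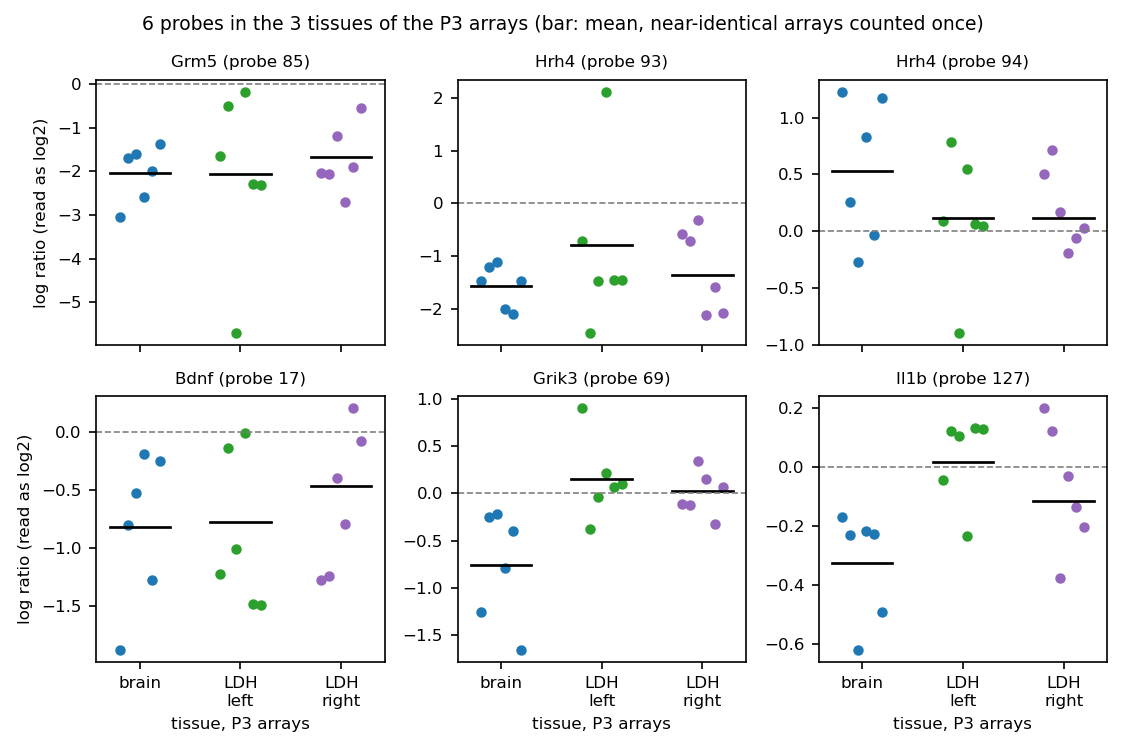
Log ratios of selected probes on P3 brain and P3 left and right dorsal horn (LDH) arrays. Points are arrays, and bars are means with the closely correlated pair of cord arrays on each side counted once. Grm5 lies below 0 on every array shown, while Grik3 probe 69 lies below 0 on all 6 brain arrays and around 0 in the cord.

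Brain arrays of rats injected at P12 were deposited in a table of their own, with 232 probes, and were not tested against P3. The Grm5 probe there read 0.06, -1.62, 0.23, 0.10 and 0.08. Only 1 of these 5 values was below 0, and the mean was -0.23 ± 0.78 (SD, n = 5), beside -2.05 ± 0.64 at P3. The Hrh4 probe of the P12 table that shares the sequence entry read 0.20, -0.58, -0.32, -0.92 and -5.35, with a mean of -1.39 ± 2.25. Which of the 2 Hrh4 probes of the P3 table it corresponds to is not given. Bdnf was at -0.13 ± 0.15 and Oprk1 at 0.75 ± 0.86, beside -0.82 and 0.69 at P3.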

How the data were processed

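The log2 ratio (as read here) of each probe was deposited by the authors in one table per injection age; what was done to the scanner signals before (background, scaling between channels) is not given in the sources used here. Per the labels' protocols, RNA was isolated with TRIzol, 5 µg per sample was labelled with a 3DNA kit and hybridised to custom oligonucleotide arrays. Values were used as deposited. Read as log2, the largest P3 brain value is a 35.3-fold ratio, and as log10 it would be a 138357-fold ratio, beyond a scanner's range; natural logarithms (171-fold) cannot be told apart. Probes were named through the platform annotation: of 196 named probes 187 matched the RefSeq rat gene table (GRCr8).

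Each probe's mean over 6 arrays was set against 0 by limma's moderated test (version 3.58.1 under R 4.3.3; two-sided; p-values adjusted by Benjamini-Hochberg over all 222 probes; threshold 0.05), and brain minus cord with limma on 6 brain and 10 cord samples (5 left, 5 right). Left cord arrays 5 and 6 (r = 0.969) and right arrays 1 and 2 (r = 0.806) correlated above 0.8 and were averaged. Their values lay within 0.1 of each other at 92.3% of probes in the left pair and 65.8% in the right pair. The script was tested on simulated data. Depth does not apply to arrays; their number limits the precision.

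Named probes were the called ones, the 20 smallest p-values, those of one sign on 6 arrays with a mean of at least 0.3 in size, the extremes of each family, the pain panel, further probes of genes so named, and the 5 smallest p-values against cord. Unnamed probes 167 and 209 were chosen after their values were seen. The members and gene lists were chosen with earlier results of these data known; the adenosine list and Il17b were added after the array's gene names were seen. Lists for dopamine receptors, reference genes and cell type markers had 0 probes. Alternatives were leaving out each array, array weights, a robust fit, centring, scaling to one median absolute deviation, averaging probes of a symbol, leaving out unnamed probes, taking exact zeros as missing, an exact sign-flip test, a plain test without variance moderation, and one fit with the cord arrays.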

Additional observations from a re-analysis of the deposited data

Results flagged for a closer look

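Single arrays stood apart in the P3 brain at 48 of 222 probes (21.6%) by Dixon's test, where chance gives about 1 in 20, and in 31 of the 48 the array was array 1, whose SD over probes (1.17) itself stood apart from the other 5. Among named probes the lone low values of array 1 were -4.99 for Gabrr1, -3.44 for Il12rb2, -3.04 for Oprm1, -1.18 for Pomc and -0.81 for Sstr1 probe 203. Its lone high values were 4.12 for Penk probe 191, 2.46 for Slc6a11, 1.97 for Oprl1 probe 182, 1.91 for Ntrk2, 1.87 for Adora2a probe 3, 1.81 for Grm3, 1.77 for Grin3a probe 78, 1.58 for Grik3 probe 67, 1.41 for Adora2a probe 5 and 1.28 for Grin2b. Other arrays stood apart at Il2 (2.21 on array 2), Sstr1 probe 204 (2.01) and Cxcr2 probe 144 (1.27) on array 4, Adra2a probe 15 (-1.81) on array 5, and Nts probe 178 (1.27) and Npy (-0.67) on array 6. Neither Grm5 nor Hrh4 probe 93 was among the 48.

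Genes with opposite signs on every array of the 2 injection ages were also noted. They were looked for only among the 92 named probes, some of which were named for having one sign on all P3 brain arrays. The share over all probes was not counted, and the difference between ages was not tested. Il1b was negative on 6 of 6 P3 brain arrays (mean -0.33) and positive on 5 of 5 P12 brain arrays (mean 0.19). Grin3a, an NMDA receptor subunit, was positive on 6 of 6 P3 brain arrays at probe 78 (mean 0.46, or 0.20 without array 1) and negative on 5 of 5 P12 brain arrays (mean -1.04). The second Grin3a probe of the P3 table had a mean of -0.18 ± 0.76, or -0.31 without array 1. The second Grin3a probe of the P12 table was not of one sign, with values from -1.95 to 0.20 and a mean of -0.52 ± 0.89.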

How the results depend on the processing

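The 2 calls were 1 to 2 when single arrays were left out (without array 5, Grm5 had an adjusted p of 0.0506), 1 with probes of a symbol averaged (Grm5; Hrh4 averaged -0.52, adjusted p = 0.299), 3 with a plain test (SSTR added, each adjusted p 0.0467), and 0 both in 1 fit with the cord arrays (Grm5 0.0634, Hrh4 0.0794) and with arrays scaled to one median absolute deviation (Grm5 0.0609, Hrh4 0.101). With the replicate number as a block in brain minus cord, the count of calls was 0, as without it. Same-numbered arrays were not taken as pairs in the main fit. Of 12 such pairs 3 had deviations correlated above 0.1 (range -0.16 to 0.20). The best-correlated array had the same number for 2 of 6 replicates with left cord and 4 of 6 with right cord. Whether same-numbered arrays are pairs is therefore not known. Of 92 named probes 59 kept their sign in every alternative, and the cause was not tested for the others. Some of these had means near 0, but others were larger, such as Penk probe 191 at 0.62 and Gabrr1 at -0.60. Lists with a positive median numbered 14, and 14 to 17 in the alternatives; without array 1 the medians of GABA-A and interleukins were 0.14 and 0.15.

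Signs turned as follows. With array weights Adora2b was -0.0103, Il4 probe 28 0.201, Gabrr1 0.119, Grik3 probe 67 -0.027, Grin1 probes 70 and 71 0.000513 and 0.0149, Grm3 -0.0328, Oprd1 -0.0242, Oprl1 probe 188 -0.0221, Penk probe 190 -0.00676 and Pomc 0.0809. In a robust fit Adra2a probe 15 was 0.041, Gabrr1 0.153, Grm3 -0.0502, Cxcr2 probe 144 -0.00524, Pomc 0.0517 and Sstr1 probe 204 -0.074. With symbols averaged Adra2a was -0.0379, Il4 0.299, Gabbr1 -0.074, Gabre 0.16, Grik3 -0.265, Grin1 0.104, Hrh4 -0.518 (against 0.53 for probe 94), Nts 0.0738, Sstr1 -0.0231, Tac1 0.173 and Grin3a 0.14. With scaling Il4 probe 28 was 0.106, Gabbr1 probe 29 -0.000367, Grin1 probe 80 0.000277, Oprl1 probe 188 -0.0229 and Pomc 0.0308. With centring Gabbr1 probe 29 was -0.00492 and Oprl1 probe 188 -0.00675.

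With single arrays left out, Adora2a probe 3 ran from -0.0216 to 0.409, Adora2b from -0.0026 to 0.12, Adra2a probe 15 from -0.33 to 0.105, Il4 probe 28 from -0.138 to 0.193, Gabbr1 probe 29 from -0.0394 to 0.118 and probe 31 from -0.487 to 0.194, Gabre probe 44 from -0.0424 to 0.0154, Gabrr1 from -0.857 to 0.284, and Grik3 probe 67 from -0.0418 to 0.334. Grin1 probe 70 ran from -0.0728 to 0.0262, probe 71 from -0.108 to 0.0514, probe 77 from -0.11 to 0.88 and probe 80 from -0.097 to 0.107, Grin2b from -0.0026 to 0.299, Grm3 from -0.149 to 0.323, Cxcr2 probe 88 from -0.0284 to 0.376 and probe 144 from -0.048 to 0.25, and Cxcr1 from -0.064 to 0.172. Oprd1 ran from -0.059 to 0.264, Oprl1 probe 188 from -0.038 to 0.106, Penk probe 191 from -0.0758 to 0.851, Pomc from -0.194 to 0.145, Sstr1 probe 204 from -0.218 to 0.343, Tac1 probe 213 from -0.16 to 0.391 and Grin3a probe 222 from -0.349 to 0.0274.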

Other observations

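Probes outside the named families were few. Vgf, a precursor protein that neurotrophins induce, had a mean of 0.37 ± 0.38 (SD, n = 6; adjusted p = 0.430, limma), with 5 of 6 arrays positive. Of the 26 probes without a gene symbol 11 had a positive and 15 a negative mean, with a median of -0.05. Probe 154 was negative on all 6 arrays at -0.23 ± 0.08 and probe 120 positive on all 6 at 0.76 ± 1.40, or at 0.19 without array 1, which read 3.58; both were chosen after their values were seen. Probe 154 had an adjusted p of 0.326 (limma).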
